A study of Homo sapiens with 8 samples.

Results

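The genes described here set the G1 checkpoint of the cell cycle: the CDK inhibitor genes CDKN1B, CDKN1C, CDKN2A, CDKN2C and CDKN2D, the kinase genes CDK4 and CDK6, and the retinoblastoma family genes RB1, RBL1 and RBL2. Each was taken from the transcript cluster whose only platform gene symbol is that gene, and the brightest cluster would have stood for a gene with several. Of the 10 genes, 9 had such a cluster, 1 cluster each, among 18417 genes measured. CDKN2C was not analysed here. The members were listed by name, with earlier results of these data known.

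Total RNA was measured on 8 one-colour arrays of U266/LR7, a myeloma line resistant to the alkylating drug melphalan, and of U266/s, the line it is compared with as its parent. In each line the arrays cover melphalan (100 µM) alone, melphalan with inhibitors of miR-221 and miR-222 (100 nM), the inhibitors alone, and a negative control oligonucleotide without melphalan. RNA was collected 12 h after treatment, and each of the 8 conditions has 1 array. The melphalan-alone arrays carry the transfection label none, while the growth protocol reads as if they had received the control oligonucleotide, so the drug and inhibitor contrasts may also hold that difference in transfection. Resistance is represented by 1 derived line, and nothing in the labels says that the arrays came from separate cultures. No condition is repeated, so the p-values rest on the scatter left by the fit. That scatter comes from differences among the 4 matched pairs with and without inhibitors. It holds array-to-array noise, which could be purely technical, and any inhibitor effect that differs with line or melphalan.

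Passage through G1 turns on phosphorylation of the RB family by CDK4 and CDK6 bound to D cyclins. RB1 restrains the activating E2F factors, whereas RBL1 (p107) and RBL2 (p130) act mainly with the repressive E2F factors, in the DREAM complex with the MuvB proteins. The INK4 inhibitors, among them p16 from CDKN2A and p19 from CDKN2D, bind CDK4 and CDK6 directly, and the CIP/KIP inhibitors p27 (CDKN1B) and p57 (CDKN1C) act on cyclin-CDK complexes, chiefly those of CDK2. In myeloma this axis is often altered through D cyclins, loss at 13q or at 1p, or silencing of CDKN2A. CDKN1B and CDKN1C are known targets of miR-221 and miR-222.

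Across all genes the quartile range of the signal was 2.75 and 2.80 log2 units on the U266/s arrays with melphalan (without and with inhibitors) and 3.08 to 3.31 on the other 6 arrays. The plasma cell marker lists had medians of 9.81 to 11.42 over the 8 arrays, against 5.46 to 5.75 for T and NK cell markers, 6.16 to 7.28 for myeloid markers and 6.90 to 7.44 for stromal and epithelial markers. With melphalan 43.4% of all genes were called (limma adjusted p under 0.05) in U266/s and 6.62% in U266/LR7, and some markers were among them. Of the myeloid markers CD14, FCER1G and CD68 rose in U266/s (3 of 6), and CD14 rose in U266/LR7 (1 of 6). EPCAM fell in U266/s (1 of 6 stromal and epithelial markers), and 5 of 8 plasma cell markers fell there while 1 rose, against 2 of 8 that fell in U266/LR7. Markers also differed between the lines without melphalan, where 34.7% of all genes were called. In U266/LR7 2 of 6 T and NK cell markers were higher (NCAM1 by 2.59, KLRD1 by 0.57), as were 2 of 6 myeloid markers (FCER1G by 1.78, CD68 by 0.58), and EPCAM was lower (-2.49) and KRT8 higher (0.69) among 6 stromal and epithelial markers. Of 8 plasma cell markers 4 were higher and 2 lower (MZB1 by -2.43, PRDM1 by -0.32). With melphalan the lines differed for 51.7% of all genes. Among the markers these were 6 of 8 plasma cell, 1 of 6 T and NK cell, 4 of 6 myeloid and 3 of 6 stromal and epithelial markers. The part of these shifts and of the narrower signal range in the results below was not tested.

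Under melphalan most of these genes were called in U266/s and few were in U266/LR7. In U266/s 6 of 9 fell and 2 rose, in a comparison that called 43.4% of all genes (24.9% lower, 18.4% higher), and the median of the 9 was -0.63 log2 units against 0.08 over all genes. In U266/LR7 1 of 9 fell and 0 rose, close to the 6.62% of all genes called (3.61% lower, 3.02% higher), with medians of -0.02 for the 9 and 0.05 for all genes. At an unadjusted limma p under 0.05 there were 8 of 9 in U266/s and 4 of 9 in U266/LR7. Of the 18417 genes there were 9574 and 3703. The response differed between the lines for 4 of 9, with a positive term for RB1, CDKN1B and CDK4 and a negative one for CDKN2D, against 23.9% of all genes (17.9% positive, 5.99% negative). Without melphalan 5 were lower and 1 was higher in U266/LR7 than in U266/s, where 34.7% of all genes were called (17.8% lower, 16.9% higher). With melphalan 4 were lower and 3 higher, where 51.7% were called (24% lower, 27.7% higher). These comparisons use the same 8 arrays and are not independent of each other.

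**Figure D1:**
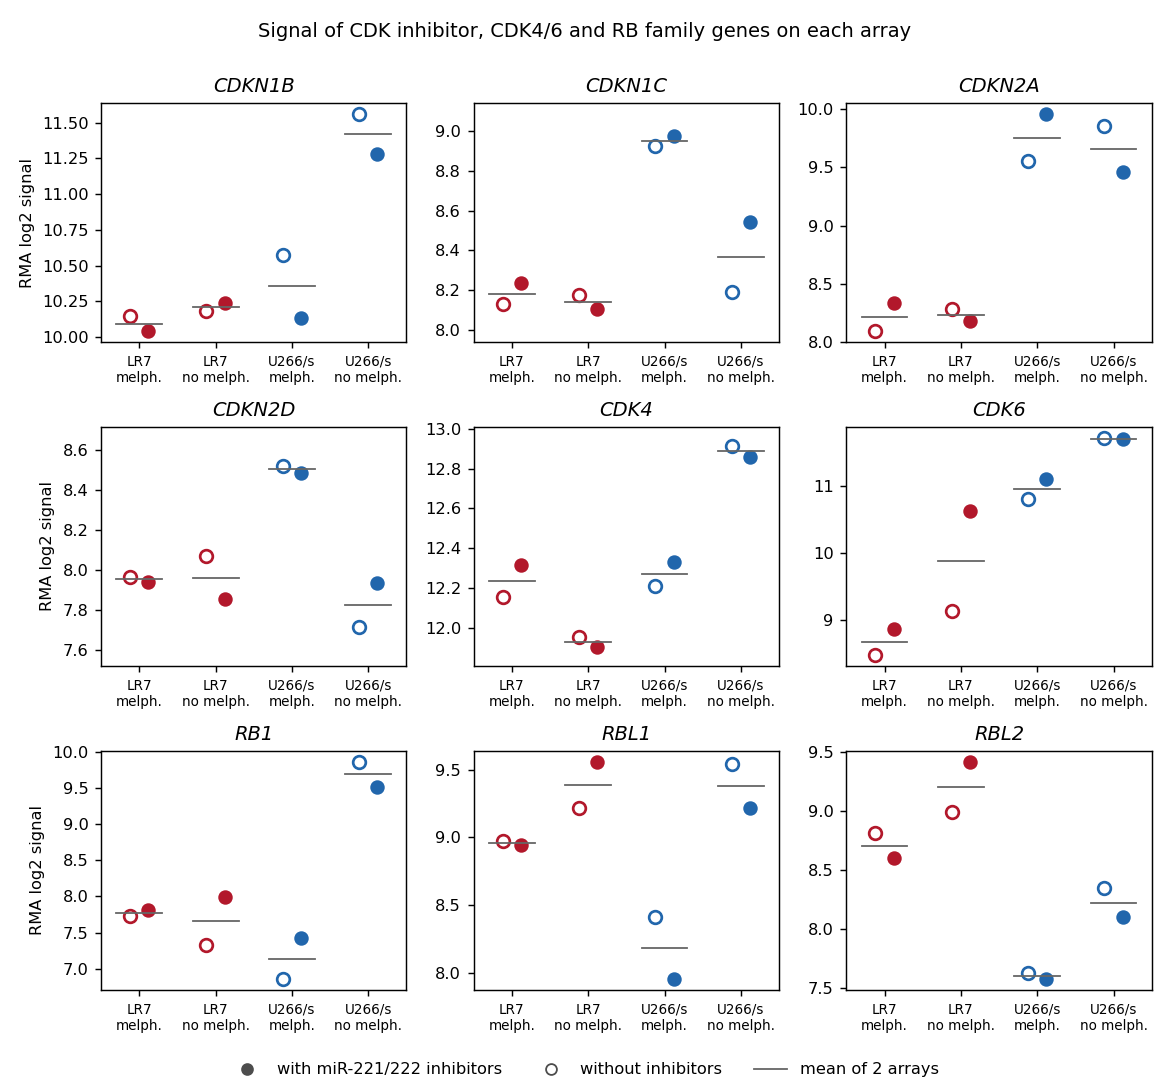
RMA log2 signal (y axis) of the 9 measured genes on each of the 8 arrays, 1 panel a gene, by line and melphalan (x axis); filled points are arrays with inhibitors, open points arrays without, and the bar is the mean of 2 arrays. RB1 stands at 9.51 and 9.87 on the U266/s arrays without melphalan and at or below 7.99 on every other array.

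RB1, the gene of the retinoblastoma protein, had the largest fall of the members in U266/s. Its signal in U266/s was 6.85 with melphalan and 7.43 with melphalan and inhibitors, against 9.87 and 9.51 without melphalan (negative control, then inhibitors alone). U266/LR7 had 7.73 and 7.82 with melphalan, against 7.33 and 7.99 without. The U266/s arrays without melphalan stand apart from the other 6, and the U266/LR7 groups overlap. RB1 fell by 2.55 ± 0.22 log2 units in U266/s (5.85-fold, limma adjusted p = 8.36e-06) and stood at 0.11 ± 0.22 in U266/LR7 (adjusted p = 0.861, 2 arrays each way). The interaction, U266/LR7 minus U266/s, was 2.66 ± 0.31 (adjusted p = 0.000254). The fall and the interaction passed in all 17 alternatives, at -2.95 to -2.15 and at 2.26 to 3.06. Some of the 17 cannot move the fold of a gene with 1 cluster, such as the mean of its clusters.

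The line difference of RB1 hence depended on the drug. Without melphalan RB1 stood lower in U266/LR7, at -2.03 ± 0.22 (4.08-fold, adjusted p = 2.36e-05). With melphalan it was higher by 0.63 ± 0.22 (adjusted p = 0.0319). This second call passed in only 13 of 17 alternatives. It was lost with cyclic loess normalization (0.49, adjusted p = 0.113) and without the U266/LR7 melphalan array (0.53), the U266/LR7 combination array (0.73) or the U266/s melphalan array (0.41).

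RBL1 encodes p107, whose promoter is a known E2F target. It is shown here because its E2F letters lie side by side. The RefSeq promoter (GRCh38.p14, chr20:37095948-37096247, minus strand, 250 bases before to 50 after the start) was searched on both strands for TTTCCCGC, TTTCGCGC, TTTGCCGC and TTTGGCGC, and the capitals mark the matches.
RBL1 promoter: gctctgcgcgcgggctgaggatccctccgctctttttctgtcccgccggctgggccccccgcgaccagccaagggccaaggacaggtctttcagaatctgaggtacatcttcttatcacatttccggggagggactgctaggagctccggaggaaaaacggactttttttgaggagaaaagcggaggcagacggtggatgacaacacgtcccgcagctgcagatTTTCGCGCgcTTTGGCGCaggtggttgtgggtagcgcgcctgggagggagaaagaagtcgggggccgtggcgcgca
The matches, TTTCGCGC at bases 225 to 232 and TTTGGCGC at bases 235 to 242 of this stretch, do not overlap. Of 35116 RefSeq promoters of this length 3.31% hold at least 1 such match and 0.145% at least 2. RBL1 was chosen for its matches, and it is the only 1 of 9 members with a promoter entry (14 promoters) that holds any.

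RBL1 fell with melphalan in U266/s. Its signal there was 8.41 and 7.95 with melphalan, against 9.54 and 9.22 without. U266/LR7 had 8.98 and 8.94 with melphalan, against 9.22 and 9.56 without. The groups do not overlap in either line, and the gap is wider in U266/s. The change was -1.20 ± 0.19 in U266/s (2.30-fold, adjusted p = 0.000386, passed in 17 of 17 alternatives) and -0.43 ± 0.19 in U266/LR7 (adjusted p = 0.225). The difference between the responses, 0.77 ± 0.27, did not pass (adjusted p = 0.0565). It ran from 0.44 with cyclic loess normalization to 1.08 without the U266/LR7 inhibitor array (adjusted p = 0.00441) and passed in 5 of 17 alternatives. The lines were at nearly the same mean without melphalan, 9.39 in U266/LR7 and 9.38 in U266/s, each over the negative control and the inhibitor array. The matched pairs ran opposite ways, U266/LR7 minus U266/s being -0.32 for the controls and 0.34 with inhibitors. With melphalan RBL1 was higher in U266/LR7 by 0.78 ± 0.19 (adjusted p = 0.00491), a call lost with quantile (0.47) and cyclic loess normalization (0.44) and without the U266/s combination array (0.55).

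RBL2, which encodes p130, the pocket protein typical of resting cells, was higher in U266/LR7 whether or not melphalan was given. Without melphalan the U266/LR7 signal was 8.99 and 9.42, against 8.34 and 8.10 in U266/s. The melphalan arrays of U266/LR7 read 8.81 and 8.60, while those of U266/s read 7.62 and 7.57. All 4 U266/LR7 arrays lie above all 4 U266/s arrays. The line difference was 0.98 ± 0.18 without melphalan (1.98-fold, adjusted p = 0.00103) and 1.11 ± 0.18 with it (adjusted p = 0.000336), and both passed in 17 of 17 alternatives. RBL2 ran opposite to RB1 between the lines without melphalan. Its melphalan change was -0.63 ± 0.18 in U266/s (adjusted p = 0.0149) and -0.50 ± 0.18 in U266/LR7 (adjusted p = 0.13), with an interaction of 0.13 ± 0.25 (adjusted p = 0.757, 95% interval -0.43 to 0.68). The fall in U266/s was lost with cyclic loess normalization (-0.46) and without the U266/s control (-0.48), melphalan (-0.65) or combination array (-0.61).

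CDK4 is a kinase gene known as a target of MYC, which binds the E box letters CACGTG. Its promoter (RefSeq, GRCh38.p14, chr12:57752261-57752560, minus strand) is shown because it holds 3 of them, in capitals. CACGTG reads the same on both strands.
CDK4 promoter: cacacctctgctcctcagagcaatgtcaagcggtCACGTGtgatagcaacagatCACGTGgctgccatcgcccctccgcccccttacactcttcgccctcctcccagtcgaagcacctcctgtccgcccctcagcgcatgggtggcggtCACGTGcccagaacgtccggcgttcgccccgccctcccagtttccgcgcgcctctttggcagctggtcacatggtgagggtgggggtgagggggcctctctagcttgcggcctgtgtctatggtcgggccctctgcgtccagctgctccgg
The matches begin at bases 35, 55 and 150 of the stretch. At least 1 match is in 7.26% of the 35116 promoters and at least 3 are in 0.094%, which is 33 promoters. CDK6 has 1 match over its 2 promoter entries and CDKN2C 2 over its 3. A match is a description of letters and not of binding.

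CDK4 fell with melphalan in U266/s, and its response differed between the lines. In U266/s its signal was 12.21 and 12.33 with melphalan, against 12.91 and 12.86 without. U266/LR7 had 12.16 and 12.32 with melphalan, against 11.95 and 11.90 without. The 4 melphalan arrays of both lines thus lie between the untreated arrays of U266/LR7, below them, and those of U266/s, above them. CDK4 fell by 0.61 ± 0.10 in U266/s (1.53-fold, adjusted p = 0.000594) and stood at 0.31 ± 0.10 in U266/LR7 (adjusted p = 0.107), with an interaction of 0.92 ± 0.14 (adjusted p = 0.00105). The line difference was -0.96 ± 0.10 without melphalan (1.94-fold, adjusted p = 2.16e-05). With melphalan the lines differed by -0.04 ± 0.10 (adjusted p = 0.783, 95% interval -0.26 to 0.19), and cyclic loess normalization brought this difference past the threshold (-0.28, adjusted p = 0.0238). The fall, the interaction and the line difference without melphalan each passed in 17 of 17 alternatives.

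CDK6, the other D cyclin kinase gene, was lower in U266/LR7 on every matched pair of arrays. In U266/LR7 its signal was 8.46 and 8.85 with melphalan and 9.13 and 10.63 without. In U266/s it was 10.81 and 11.11 with melphalan and 11.73 and 11.71 without. The highest U266/LR7 array (inhibitors alone) lies just under the lowest U266/s array (melphalan alone). The line difference was -1.84 ± 0.27 without melphalan (3.57-fold, adjusted p = 0.000257; -1.19 without the U266/LR7 control) and -2.30 ± 0.27 with it (4.92-fold, adjusted p = 3.77e-05), and both passed in 17 of 17 alternatives.

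CDK6 was the only member called with melphalan in U266/LR7. It fell there by 1.22 ± 0.27 (2.34-fold, adjusted p = 0.0233). In U266/s it fell by 0.76 ± 0.27 (adjusted p = 0.0426). The interaction was -0.46 ± 0.39 (adjusted p = 0.421, 95% interval -1.31 to 0.38). Single arrays set its value, since it was -1.11 without the U266/LR7 control (adjusted p = 0.00335, the 1 of 17 alternatives that passed) and 0.18, with the sign turned, without the U266/LR7 inhibitor array (adjusted p = 0.57). The size in U266/LR7 rests on the high array with inhibitors alone, without which it was -0.58 (adjusted p = 0.0687). It was -1.87 without the U266/LR7 control, and the call was also lost without the U266/LR7 melphalan (-1.33) or combination array (-1.12). The U266/s fall was lost under median centring (-0.70), quantile (-0.58) and cyclic loess normalization (-0.46), and without the control (-0.38), melphalan (-0.92) or combination array (-0.60) of U266/s.

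**Figure D2:**
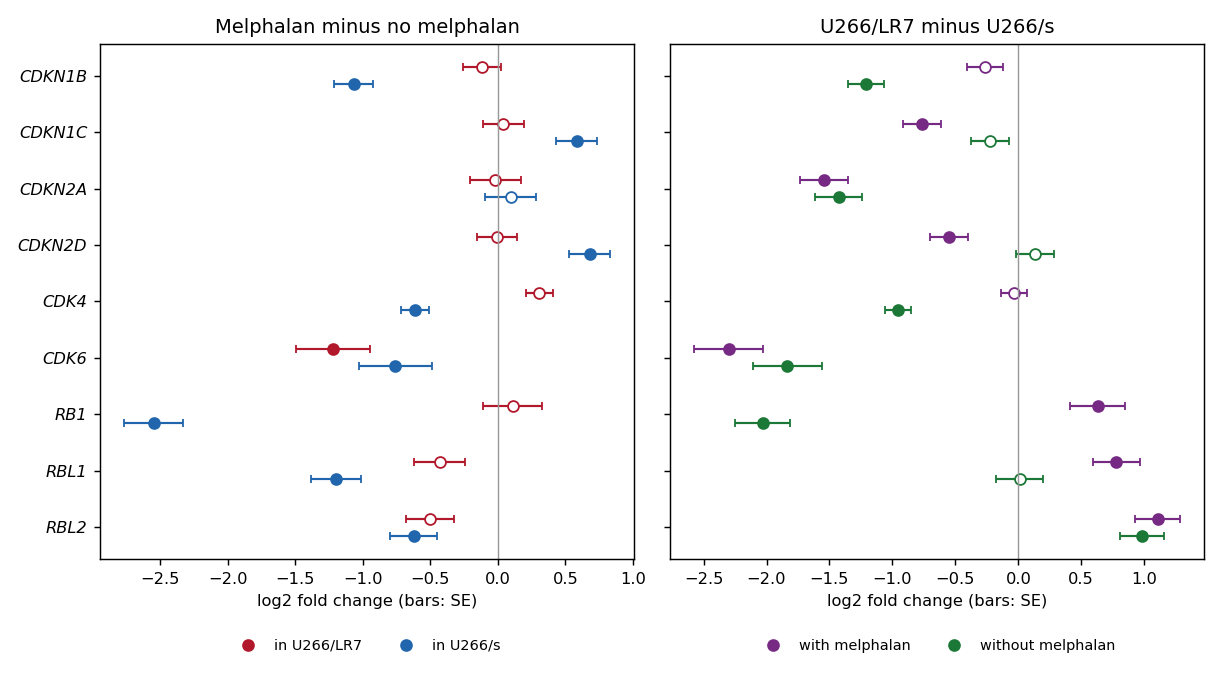
Log2 fold changes with SE (x axis) of the 9 genes (y axis), for melphalan against no melphalan in each line (left) and U266/LR7 against U266/s with and without melphalan (right); filled points have a limma adjusted p under 0.05. RB1 has the largest fall in U266/s (-2.55), and CDK6 (-1.22) is the only filled point for melphalan in U266/LR7.

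CDKN1B, the p27 gene, was high on the U266/s arrays without melphalan. In U266/s its signal was 10.57 and 10.14 with melphalan, against 11.56 and 11.28 without. U266/LR7 had 10.14 and 10.04 with melphalan, against 10.18 and 10.24 without. The U266/LR7 arrays span only 0.20 log2 units, and the U266/s combination array lies within that span. CDKN1B fell by 1.07 ± 0.14 in U266/s (2.10-fold, adjusted p = 0.000143) and stood at -0.12 ± 0.14 in U266/LR7 (adjusted p = 0.745). Its line difference was -1.21 ± 0.14 without melphalan (2.32-fold, adjusted p = 4.85e-05) and -0.26 ± 0.14 with it (adjusted p = 0.147). Quantile and cyclic loess normalization brought the difference with melphalan past the threshold (-0.57 and -0.63). The interaction of 0.95 ± 0.20 (adjusted p = 0.00592) was lost with cyclic loess normalization (0.60, adjusted p = 0.0634) and without the U266/s control (0.89, adjusted p = 0.0524).

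CDKN1C, the p57 gene, moved the other way in U266/s. Its signal there was 8.92 and 8.97 with melphalan, against 8.19 and 8.54 without. In U266/LR7 all 4 arrays lie between 8.11 and 8.24. CDKN1C rose in U266/s by 0.59 ± 0.15 (adjusted p = 0.00923) and stood at 0.04 ± 0.15 in U266/LR7 (adjusted p = 0.934), and the interaction of -0.54 ± 0.21 did not pass (adjusted p = 0.0909). The interaction passed in 4 of 17 alternatives, with median centring (-0.64), quantile (-0.89) and cyclic loess normalization (-0.77) and without the U266/LR7 inhibitor array (-0.66). The rise was 0.90 with quantile normalization and lost its call without the U266/s control (0.42) or melphalan array (0.55) and with transfection as 3 levels (0.55). The transfection term marks only the melphalan-alone arrays, so it cannot be told apart from a melphalan by inhibitor term. The line difference was -0.22 ± 0.15 without melphalan (adjusted p = 0.309) and -0.77 ± 0.15 with it (adjusted p = 0.00142).

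CDKN2D, the gene of the INK4 inhibitor p19, likewise rose in U266/s. Its signal there was 8.52 and 8.49 with melphalan, against 7.72 and 7.94 without. U266/LR7 had 7.97 and 7.94 with melphalan, against 8.07 and 7.85 without. The rise was 0.68 ± 0.15 (adjusted p = 0.00387; 0.52, adjusted p = 0.078, without the U266/s control), against -0.01 ± 0.15 in U266/LR7 (adjusted p = 0.989). The interaction of -0.69 ± 0.21 (adjusted p = 0.0374) passed in only 9 of 17 alternatives and was lost without 6 of the 8 arrays, left out in turn. With melphalan the CDKN2D line difference was -0.55 ± 0.15 (adjusted p = 0.0104; -0.85 with quantile normalization), a call lost without either U266/LR7 melphalan array (-0.56 and -0.54) or the U266/s melphalan array (-0.54). Without melphalan the difference was 0.14 ± 0.15 (adjusted p = 0.563).

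CDKN2A differed between the lines and was not called for melphalan. Its cluster covers transcripts of both proteins of the locus, p16 and ARF, which it cannot tell apart. The signal in U266/LR7 was 8.09 and 8.33 with melphalan and 8.28 and 8.18 without. In U266/s it was 9.55 and 9.96 with melphalan and 9.86 and 9.46 without. The lines did not overlap, and within each line the melphalan groups do. Without melphalan the CDKN2A difference was -1.43 ± 0.19 (2.69-fold, adjusted p = 0.000106) and with it -1.54 ± 0.19 (2.91-fold, adjusted p = 4.68e-05), and both passed in 17 of 17 alternatives. Its melphalan change was 0.10 ± 0.19 in U266/s (adjusted p = 0.702, 95% interval -0.32 to 0.51) and -0.02 ± 0.19 in U266/LR7 (adjusted p = 0.973, 95% interval -0.43 to 0.39).

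Neighbours of CDKN2A at 9p21 were partly lower in U266/LR7 as well. CDKN2B, the p15 gene, had 7.83 and 8.25 in U266/LR7 without melphalan, against 8.80 and 9.33 in U266/s, a difference of -1.03 ± 0.16 (adjusted p = 0.00035). With melphalan it was -0.69 ± 0.16 (adjusted p = 0.00367). MTAP, a methionine salvage gene, stood at -0.90 ± 0.14 without melphalan (adjusted p = 0.000322), and with melphalan the difference was -0.02 ± 0.14 (adjusted p = 0.906). Of the 6 measured genes listed as INK4 regulators and neighbours, 4 fell in U266/s with melphalan, the Polycomb genes EZH2 (-1.05), SUZ12 (-0.95) and EED (-0.82) and MTAP (-0.89), where 24.9% of all genes fell. CBX7, a further Polycomb gene named after its value was seen, was the 1 that rose (0.44). In U266/LR7, where only 6.62% of all genes were called, 0 of 6 were called by limma. The interaction was positive for 4, against 17.9% of all genes.

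Neighbours of RB1 at 13q14 fell in part too. Of 7 measured, 4 fell in U266/s with melphalan and 0 rose, where 24.9% of all genes fell and 18.4% rose: FNDC3A (-1.72 ± 0.20), SUCLA2 (-1.48 ± 0.15), MED4 (-1.02 ± 0.16) and RCBTB2 (-0.55 ± 0.14). In U266/LR7, where only 6.62% of all genes were called, 0 of 7 were. LPAR6, which lies within an intron of RB1, had 4.18 to 4.30 in U266/LR7 and 4.13 to 4.40 in U266/s and was called in neither line. Its signals lie below the lower quartile of all genes on every array (5.81 to 6.02), so a fall could go unseen. CYSLTR2, also among the 7, lies there too (4.31 to 4.69). Between the lines without melphalan RCBTB2 was lower in U266/LR7 (-0.63) and ITM2B higher (0.42), and the median of the neighbours was 0.12, whereas RB1 was at -2.03. The difference between RB1 and its neighbours was not tested.

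Of 10 partner cyclins and CDKs, 5 fell and 1 rose in U266/s with melphalan, where 43.4% of all genes were called, and 3 rose and 1 fell in U266/LR7, where 6.62% were. CCND1, the cyclin D1 gene, had 11.48 and 11.34 in U266/s with melphalan, against 10.35 and 10.27 without, a rise of 1.10 ± 0.12 (adjusted p = 3.81e-05). U266/LR7 had 11.27 and 10.96 with melphalan, against 11.56 and 11.55 without (-0.44 ± 0.12, adjusted p = 0.0573), and the interaction was -1.54 ± 0.17 (adjusted p = 0.000217). CCND1 stood higher in U266/LR7 by 1.24 ± 0.12 without melphalan (adjusted p = 1.14e-05). CCND2 stayed between 12.18 and 12.58 on all 8 arrays and was not called in any comparison of the lines or of melphalan.

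Cyclin E2 and CDK2 fell in U266/s and rose in U266/LR7. CCNE2 changed by -1.26 ± 0.21 in U266/s and by 0.81 ± 0.21 in U266/LR7 (interaction 2.08 ± 0.30, adjusted p = 0.000644). CDK2, the cyclin E kinase, changed by -0.54 ± 0.13 in U266/s and by 0.53 ± 0.13 in U266/LR7 (interaction 1.07 ± 0.19, adjusted p = 0.00179). CCND3 rose in U266/LR7 by 0.69 ± 0.14 (adjusted p = 0.0169) and stood at -0.36 ± 0.14 in U266/s. MNAT1, an assembly factor of the CDK-activating kinase, fell in both lines, with -2.02 ± 0.15 in U266/s and -1.03 ± 0.15 in U266/LR7, and its kinase CDK7 fell by 0.98 ± 0.15 in U266/s.

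The E2F factors and the MuvB proteins are the partners of the RB family. Of 10 E2F and DP genes 5 fell and 2 rose with melphalan in U266/s (median -0.50), where 24.9% of all genes fell and 18.4% rose. In U266/LR7 1 fell and 2 rose with melphalan (median 0.26), where 6.62% of all genes were called. E2F5, a repressive E2F that binds p130, changed by -2.00 ± 0.16 in U266/s, with an interaction of 1.61 ± 0.23 (adjusted p = 0.000629), and E2F4 fell by 0.70 ± 0.15. The activator gene E2F1 instead rose by 0.82 ± 0.14 in U266/s (adjusted p = 0.000602), and E2F7 rose by 0.88 ± 0.20 in U266/LR7. The signal of the DP gene TFDP2 was lower with melphalan in both lines. It was 8.81 and 8.41 in U266/s with melphalan, against 9.61 and 9.62 without. In U266/LR7 it was 9.15 and 9.01 with melphalan, against 9.73 and 9.86 without. Of 7 MuvB and associated genes 4 fell in U266/s, namely LIN9 (-1.57), LIN54 (-1.48), LIN52 (-0.88) and FOXM1 (-0.56), against the same 24.9%. In U266/LR7 0 were called, against the same 6.62%.

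Genes that control p27 included some that fell with CDKN1B in U266/s. SKP2, the subunit that directs p27 to destruction, had 9.68 and 9.82 in U266/s with melphalan, against 11.43 and 11.30 without, and fell by 1.61 ± 0.14 (adjusted p = 1.05e-05). U266/LR7 had 10.68 and 10.57 with melphalan, against 9.98 and 10.28 without (0.49 ± 0.14, adjusted p = 0.0655), and the interaction was 2.10 ± 0.20 (adjusted p = 0.000107). CUL1, the scaffold of the same ligase, fell by 1.65 ± 0.15 in U266/s, and FOXO3, a factor that activates CDKN1B, rose by 0.60 ± 0.14. Altogether 4 of 10 such genes fell and 2 rose in U266/s, against 24.9% and 18.4% of all genes. In U266/LR7 0 were called, against 6.62% of all genes. The 4 include CKS1B, a cofactor of SKP2, at -0.30 by its brightest cluster and 0.0625 by the mean of its 3 clusters (adjusted p = 0.643). Without melphalan 7 of 10 were lower and 0 higher in U266/LR7, where 17.8% of all genes were lower, led by CUL1 (-1.49), SKP2 (-1.23) and SKP1 (-0.81). The 7 also include CKS1B (-0.37), again by its brightest cluster.

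CDKN1A, the p21 gene and the remaining CIP/KIP inhibitor, rose in both lines. It had 8.63 and 8.64 in U266/s with melphalan, against 7.22 and 7.37 without (1.34 ± 0.17, adjusted p = 9.5e-05). U266/LR7 had 8.51 and 9.17 with melphalan, against 8.10 and 8.27 without (0.66 ± 0.17, adjusted p = 0.0448). It was higher in U266/LR7 by 0.89 ± 0.17 without melphalan (adjusted p = 0.0016). CDKN1A and CDKN1B ran in opposite directions, both with melphalan in U266/s and between the lines without it. Of 3 other CDK inhibitor genes listed, 2 rose in U266/LR7, CDKN1A and CDKN2B, where 3.02% of all genes rose. CDKN2B had 8.76 and 8.78 there with melphalan, against 7.83 and 8.25 without. In U266/s it was not called (0.40 ± 0.16, limma adjusted p = 0.0629). CDKN3, the third, fell in U266/s by 1.06 ± 0.15 (adjusted p = 0.00023), where 24.9% of all genes fell.

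**Figure D3:**
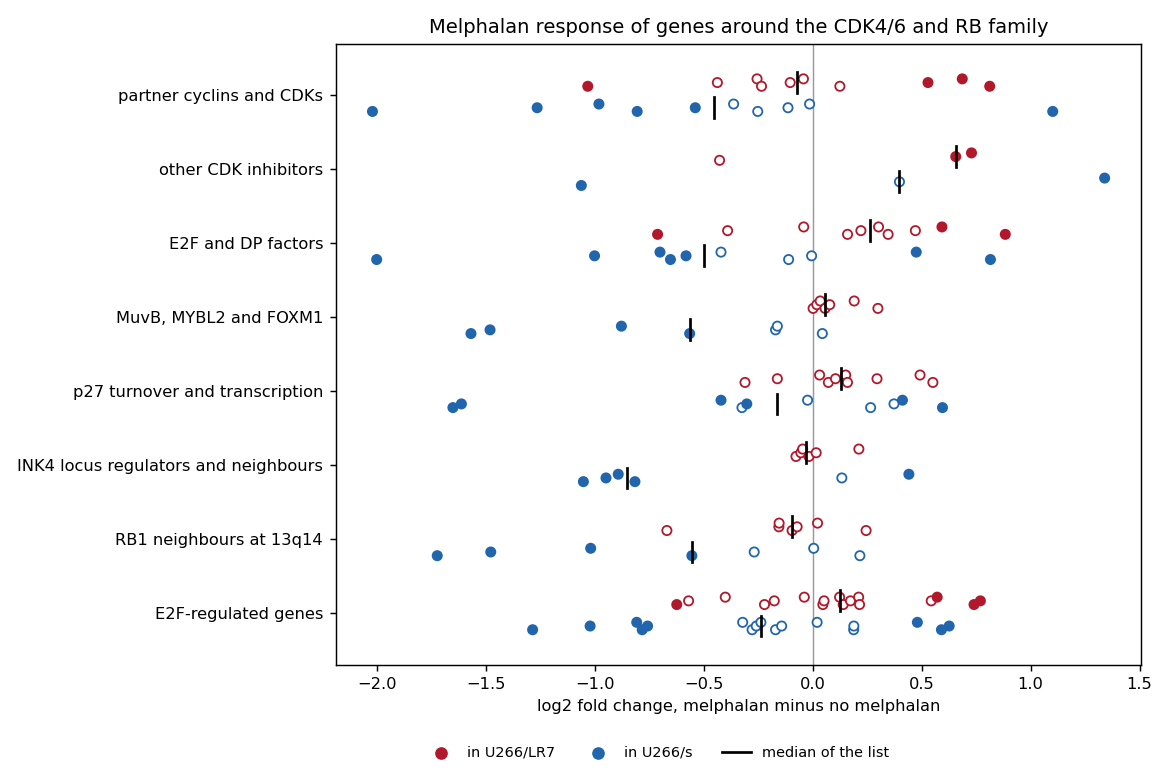
Log2 fold change with melphalan (x axis) of each measured gene of 8 related gene lists (y axis) in U266/LR7 and U266/s; filled points have a limma adjusted p under 0.05 and black bars are list medians. The medians in U266/s lie below those in U266/LR7 for the 8 lists, for example -0.56 against 0.06 for MuvB, MYBL2 and FOXM1.

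The inhibitor arrays address whether the transcript signal of these genes changes when inhibitors of miR-221 and miR-222 are given. Protein and the activity of the checkpoint were not measured on these arrays. The mature sequences (RefSeq, GRCh38.p14) are shown because both share the seed, bases 2 to 8, in capitals, through which they pair with CDKN1B and CDKN1C. The mature sequences lie on the minus strand at chrX:45746180-45746202 and chrX:45747036-45747056.
hsa-miR-221-3p: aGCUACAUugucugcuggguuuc
hsa-miR-222-3p: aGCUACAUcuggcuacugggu
Beyond the shared seed GCUACAU the sequences differ, with 23 and 21 bases.

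None of the 9 members was called for the inhibitors by limma, over both lines or in either line, and over both lines 0.0434% of all genes were called (0.0271% higher, 0.0163% lower), with 0.0434% in U266/LR7 and 0% in U266/s. At an unadjusted p under 0.05 there was 1 member over both lines, 1 in U266/LR7 and 2 in U266/s, against 1161, 799 and 1396 of the 18417 genes. CDKN1B had 10.04 and 10.24 in U266/LR7 with inhibitors (with and without melphalan), against 10.14 and 10.18 without. In U266/s it had 10.14 and 11.28 with inhibitors, against 10.57 and 11.56 without. The difference was -0.19 ± 0.10 over both lines (adjusted p = 0.823, 95% interval -0.42 to 0.03, lower in 3 of 4 pairs), -0.03 ± 0.13 in U266/LR7 and -0.36 ± 0.13 in U266/s (unadjusted p = 0.024, adjusted p = 0.622). The pair in U266/LR7 without melphalan was the only one with a higher CDKN1B value with inhibitors.

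CDKN1C had 8.24 and 8.11 in U266/LR7 with inhibitors, against 8.13 and 8.18 without. In U266/s it had 8.97 and 8.54 with inhibitors, against 8.92 and 8.19 without. The difference over both lines was 0.11 ± 0.11 (adjusted p = 0.909, 95% interval -0.13 to 0.34). CDK4, CDKN2A and CDKN2D stood at 0.04, 0.04 and -0.01 over both lines. A p that misses the threshold does not show that the inhibitors left these genes as they were.

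CDK6 had the largest inhibitor difference of the members. In U266/LR7 its signal was 8.85 with melphalan and inhibitors, against 8.46 with melphalan alone, and 10.63 with inhibitors alone, against 9.13 with the negative control. In U266/s the pair differences were 0.30 with melphalan and -0.02 without. The difference in U266/LR7 was 0.95 ± 0.23 (unadjusted p = 0.00222, adjusted p = 0.48), and without either melphalan array of U266/LR7 it was 1.51, which is the pair without melphalan, and passed (adjusted p = 0.0152 and 0.0156). In that pair RB1, RBL2 and RBL1 stood at 0.66, 0.43 and 0.34, and in the U266/s pair without melphalan at -0.35, -0.24 and -0.33. Whether 1 array or the inhibitors made this difference cannot be told apart, since the condition has 1 array.

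**Figure D4:**
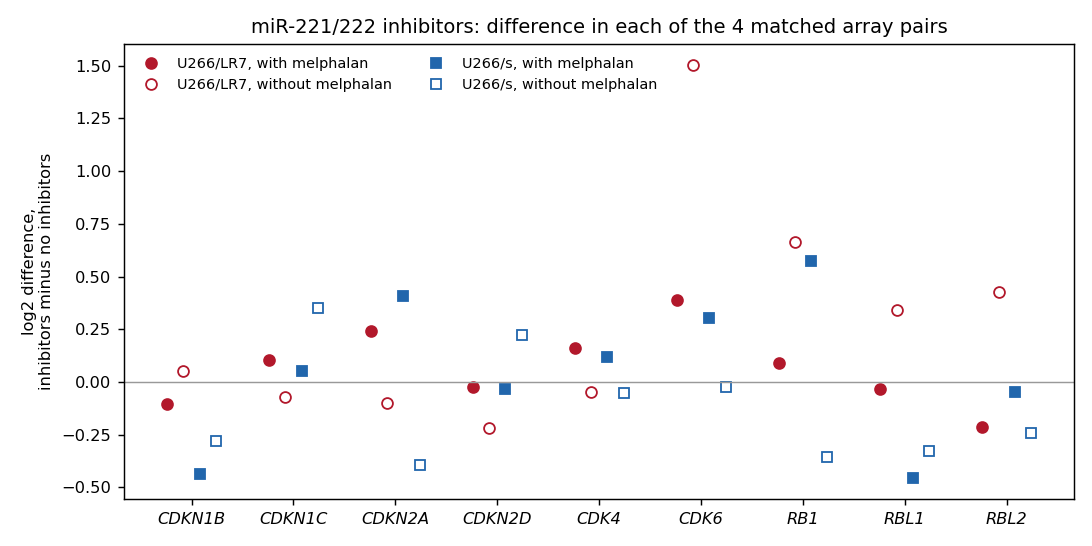
Log2 difference between matched arrays with and without the microRNA inhibitors (y axis) for the 9 genes (x axis), 4 pairs a gene. The CDK6 pair of U266/LR7 without melphalan lies highest at 1.51, and the CDKN1B pairs lie between -0.44 and 0.05.

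The array also holds clusters for the genes of both microRNAs, and neither was called for the inhibitors. MIR222 had 5.96 and 6.20 in U266/s with inhibitors (with and without melphalan), against 4.73 and 4.03 without. U266/LR7 had 4.36 and 4.04 with inhibitors, against 4.35 and 4.25 without. The difference was 1.70 ± 0.20 in U266/s (unadjusted p = 9.87e-06, adjusted p = 0.0909) and -0.10 ± 0.20 in U266/LR7 (adjusted p = 0.999). MIR221 stood at 0.66 ± 0.13 in U266/s (adjusted p = 0.417) and 0.07 ± 0.13 in U266/LR7. Between the lines without melphalan MIR221 stood at -0.34 ± 0.18 (adjusted p = 0.181, past the threshold in 1 of 16 alternatives) and MIR222 at -0.97 ± 0.43 (adjusted p = 0.106, past it in 4 of 16). These line differences rest on the pair of arrays with inhibitors alone, at -0.71 for MIR221 and -2.16 for MIR222. The negative control pair stood at 0.03 and 0.22. Apart from MIR222 at 6.20, both clusters lay below the lower quartile of all genes on each array (5.81 to 6.02). With melphalan MIR221 fell in U266/s (-0.62 ± 0.18, adjusted p = 0.0165), and MIR222 was not called there (0.23 ± 0.43).

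Among 7411 other genes whose signal ranged over more than 1 log2 unit, those most like each member over the 8 arrays were ranked by Pearson r. RB1 was followed most closely by DIMT1, PCID2 and FAM98A (0.994 each). CDKN1B was followed by ESPL1 (0.994), TASL (0.99) and PLEKHA1 (0.987), and CDK4 by LOC100130691 (0.985), TRIM47 (0.981) and CDC42SE1 (0.981). CDK6 was followed by MTHFD1L (0.996), TYW1B (0.984) and MYH9 (0.965), and CDKN2A by TMC8 (0.991), MDGA1 (0.99) and BEX3 (0.988). RBL1 was followed by SLTM (0.992), PDS5B (0.989) and PARP11 (0.987), and RBL2 by CEP290 (0.997), SPG11 (0.994) and IFNAR1 (0.994). CDKN1C and CDKN2D ranged over less than 1 log2 unit and were not ranked. These 8 points share the line and drug structure of the series, so a high r is frequent and describes a pattern only.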

How the data were processed

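The authors deposited RMA log2 values from Affymetrix Expression Console, per the submitters' processing notes. Software versions: not given in the sources used here. Of 33297 transcript clusters, 19460 have 1 gene symbol in the platform annotation, 1754 several and 12083 none listed; 19429 of the first matched a RefSeq gene by ID. The brightest cluster of a gene was kept, which left 18417 genes. Differences were fitted with limma 3.58.1 (R 4.3.3, intensity trend) on all 8 arrays and all genes, with line, melphalan, melphalan by line and inhibitors (3 residual degrees of freedom), or inhibitors within each line (2), and Benjamini-Hochberg adjustment at 0.05. Errors of folds are SE. The scripts were tested on simulated data. Precision is limited by the number of arrays. Alternatives changed normalization, filter, variance model, cluster choice, transfection coding, model terms and the arrays included. Members and gene lists were chosen with earlier results of these data known. Named were all members, some of the largest called changes of each list, a fixed set (such as CDKN1A, CDKN2B, SKP2, MIR221) and the 3 genes most like each member. Cell type markers are named only where called. MicroRNA and promoter sequences are from RefSeq.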

Additional observations from a re-analysis of the deposited data

Results flagged for a closer look

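The response to melphalan differed between the lines, by the interaction term itself (U266/LR7 minus U266/s, log2), for RB1 at 2.66, CDKN1B at 0.95, CDK4 at 0.92 and CDKN2D at -0.69. A positive term means that the change in U266/LR7 lay above that in U266/s. The terms of RB1 and CDK4 passed in 17 of 17 alternatives, that of CDKN1B in 15 and that of CDKN2D in 9. No condition has enough arrays for a check of single arrays that stand apart.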

How the results depend on the processing

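No paired analysis was possible because the labels give no replicate numbers that groups share, other than what the design itself matches: with line, melphalan and their interaction as terms, the inhibitor fit over both lines compares the arrays within their 4 matched pairs. Over 1215 recomputed member values, 1094 kept direction and side of the threshold, 37 lost a call, 17 gained one, 67 changed sign without a call before or after, and 0 reversed. These tallies include settings that could not move a fold. Each member has 1 cluster, so the mean of clusters left its values as they were. The filter and variance settings act on p-values only. Leaving out an array of one line does not move the melphalan fold of the other. With each array left out in turn, the members called numbered 6 in each case for the lines without melphalan and 5 to 7 with melphalan, 4 to 8 for melphalan in U266/s, 0 to 3 in U266/LR7, 2 to 6 for the interaction, 0 for the inhibitors over both lines and in U266/s, and 0 to 1 in U266/LR7. Where this leaves 1 array in an arm, it is assumed to vary like the others. The other alternatives gave 6, 7, 6 to 8, 1, 4 to 5 and 0 in the same order. CKS1B, with 3 clusters, was the exception among list genes: with the mean of its clusters it was -0.37 (adjusted p = 0.0106) for U266/LR7 against U266/s with melphalan and 0.0625 (adjusted p = 0.643) for melphalan in U266/s, both opposite in sign to its brightest cluster (0.00365, not called, and -0.30, called). The cause was not tested.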

Other observations

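Of 17 measured genes regulated by E2F, 5 fell and 3 rose in U266/s with melphalan, close to the 24.9% and 18.4% of all genes that did, with CCNB1 (-1.29), CDC6 (-1.02), CDK1 (-0.81) and POLA1 (-0.78) as the largest changes, and CDT1 (0.63), PCNA (0.59) and MCM2 (0.48) as those that rose, named after their values were seen. In U266/LR7, where 3.02% of all genes rose and 3.61% fell, 3 rose, ORC1 (0.77), CDC6 (0.74) and TK1 (0.57), and CCNB1 fell by 0.62. CDC6, a replication licensing gene, had 9.98 and 9.72 in U266/s with melphalan, against 10.88 and 10.87 without, and 11.08 and 11.33 in U266/LR7 with melphalan, against 10.46 and 10.47 without. Its interaction was 1.76 ± 0.20 (adjusted p = 0.000226).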
